A study of Mus musculus with 11 samples.

Results

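The spliceosome is the RNA and protein machine that removes introns from pre-mRNA. Its genes were taken here as all symbols that begin Snrp, Sf3a, Sf3b, Prpf, U2af or Srsf, or that are Lsm followed by a number, without pseudogenes. The rule gave 59 of the 24064 genes in the files of the scatter-gated libraries, each read from the RefSeq transcript that had its highest average level across the 7 gated libraries. By role they were 8 Sm genes, 11 LSm genes, 4 genes for other proteins of the U1 and U2 particles, 9 SF3A and SF3B genes, 3 U2AF genes, 13 PRPF genes and 11 SR genes (Srsf).

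Each small nuclear ribonucleoprotein of the spliceosome carries a uridine-rich RNA held in a ring of small proteins, which is an Sm ring in most of them and an LSm ring on U6. SF3A and SF3B belong to the U2 particle and hold it on the branch point, U2AF binds the end of the intron, and most PRPF proteins act around the U4, U5 and U6 RNAs. SR proteins bind exons, promote the use of nearby splice sites and are among the best known regulators of alternative splicing. Sm and LSm proteins are short and their messages are mostly short, whereas many SF3 and PRPF proteins are large.

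The cells were haematopoietic stem cells (HSCs) of wild-type C57BL/6 mice, collected from the liver at postnatal day 0 and sorted as lineage-negative cells with Sca1, cKit and CD150 and without CD48. Each library was made from 100 to 200 cells by Smart-seq2, a protocol that copies whole messages from very small inputs and does not record the strand. The gated groups are FSC-A High (4 libraries), from cells whose forward scatter area was high, and FSC-A Low (3 libraries), from cells in which it was low, and 4 further libraries, labelled WT HSC, have no scatter gate in their labels. Forward scatter area is a cytometry reading commonly used for cell size. All 3 groups have the same genotype, age and tissue, and the labels name no transgene or treatment. Whether replicates are separate mice is not stated, so the p-values cover only the spread among the libraries at hand, which may be technical.

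Gated values are in RPKM, a unit inferred from the values, at a depth of about 65.7 M to 85.4 M reads for FSC-A High and 70.1 M to 98.2 M for FSC-A Low. The WT HSC files held 21307178 to 30889443 recovered reads. RPKM is a share of each library's RNA, so fewer cells of a type and less RNA per cell cannot be told apart. Of 3 genes of the sort gate, Kit was at 17.9 to 25.2 RPKM in FSC-A High against 48.8 to 61.2 in FSC-A Low, whereas the groups overlapped for Slamf1 (CD150) and Ly6a (Sca1). All 5 HSC markers listed passed the filter, with Cd34 at 119 to 154 RPKM and Procr at 20.3 to 33.6 RPKM over both groups, and the gated-out Cd48 reached 3.32 RPKM at most. The summed level of 5 erythroid markers was 85.3 to 219 RPKM in FSC-A High and 54.3 to 80.1 in FSC-A Low. Nearly all of it was Hbb-bt. The summed level of 5 myeloid markers, nearly all Lyz2, was 181 to 270.4 against 166 to 174 RPKM, with Ctsg at 0 in all libraries. Of the 4 megakaryocyte markers the sums were 62.7 to 96.2 against 46.4 to 59.5 RPKM. The 3 of them that passed the filter described below did not all differ in the same direction, and none was called. Sums of 5 hepatocyte markers were 12.1 to 16.0 RPKM in FSC-A High and 7.39 to 16.7 in FSC-A Low. Those of 3 macrophage markers reached 3.94 RPKM at most. The part of all these cells in the differences below was not tested. Sums of 3 measured lymphoid and 4 endothelial and stromal markers did not exceed 0.431 and 1.78 RPKM.

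Promoter sequence was set beside the expression differences of these genes. By the test described below, 15 of 19 Sm and LSm genes were higher in FSC-A High. The share was 15.6% over all genes tested and 42.0% over those with a transcript under 1000 nt. RefSeq windows of 300 bases, from 250 before to 50 after a start, were found for 49 of the 59 genes, in 63 windows. The sequences below lie before the start of 2 genes that were higher in FSC-A High, the Sm gene Snrpe and the LSm gene Lsm8, and of 2 that were lower, the long factor gene Prpf6 and the SR gene Srsf6. Each is the 100 bases nearest the start that hold no annotated exon, 5′ to 3′ on the strand of the gene, in build GRCm38.p6. Capitals mark matches to the motifs searched.
Snrpe, chr1:133610292-133610391, minus strand: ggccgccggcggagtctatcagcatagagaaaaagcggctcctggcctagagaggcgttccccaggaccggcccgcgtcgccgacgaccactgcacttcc
Lsm8, chr6:18848479-18848578, plus strand: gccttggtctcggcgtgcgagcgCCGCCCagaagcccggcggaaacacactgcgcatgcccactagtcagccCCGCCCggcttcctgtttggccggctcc
Prpf6, chr2:181601216-181601315, plus strand: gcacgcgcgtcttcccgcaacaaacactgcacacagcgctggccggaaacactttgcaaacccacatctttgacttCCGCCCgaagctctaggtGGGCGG
Srsf6, chr2:162931408-162931507, plus strand: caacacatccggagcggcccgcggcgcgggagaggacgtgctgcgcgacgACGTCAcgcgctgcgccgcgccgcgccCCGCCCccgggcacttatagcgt

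The motifs, read on both strands, were GGGCGG (a GC box), CCGGAAG (an ETS-type site), TGACGT (part of a cyclic AMP response element), CCAAT (known to be bound by NF-Y), CACGTG (an E-box) and TATAAA. None of these strings contains another, although matches can overlap. In the stretches shown, GC boxes were found in Lsm8, Prpf6 and Srsf6 and a match to TGACGT in Srsf6, and the Snrpe stretch held none of the 6 strings. Over the whole windows, GGGCGG was present in 63.5% of the 63 windows of these genes and in 35.7% of all 32851 windows of the same length. That background was taken whether or not a gene was expressed in these cells. No share over only the expressed genes was computed, so the contrast may not be particular to spliceosome genes. CCGGAAG was present in 34.9% against 8.86%, and TGACGT in 20.6% against 7.51%. The remaining motifs were closer to the background, with CCAAT in 39.7% against 37.4%, CACGTG in 9.52% against 7.15% and TATAAA in 7.94% against 13.6%. Among the 14 SR windows, 13 held a GC box, and among the 19 Sm and LSm windows 12 did. CCGGAAG was in 3 of the 19 Sm and LSm windows and in 11 of the 25 windows of SF3, PRPF and U2AF genes. TGACGT was in 2 of the 19, in 6 of the 25 and in 3 of the 14 SR windows. These matches describe the letters of the windows and are not binding sites. Their relation to the expression differences was not tested.

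In the comparison of FSC-A High with FSC-A Low, the small-protein families were higher in the high-scatter cells and the SR family was split with most of its called genes lower. Of the 59 genes, 58 passed the filter of at least 1 RPKM in at least 3 gated libraries. Srsf12, an SR gene whose highest value was 0.838 RPKM, did not. By limma on log2(RPKM + 1), with p-values adjusted over all 10619 genes tested and a call at an adjusted p below 0.05, 25 of the 58 were higher in FSC-A High, 7 were lower and 26 were not called. The same call was made for 15.6% of all genes tested in the higher direction and for 11.7% in the lower one. The libraries of the groups did not overlap for 28 of the 58 genes in the higher direction and for 9 in the lower one, against 18.9% and 16.0% of all genes tested. The median log2 difference (FSC-A High minus FSC-A Low) was 0.37 over the 58 genes and -0.04 over all genes.

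By groups of role and length, 15 of 19 Sm and LSm genes were higher and 0 were lower, with a median difference of 0.98. Of the 4 genes for other U1 and U2 particle proteins 3 were higher and 0 lower, at a median of 0.76. Among SF3, U2AF and PRPF genes with a transcript under 2000 nt, 5 of 7 were higher and 0 lower, at a median of 0.73. Of 18 such genes with longer transcripts, called long factors here, 0 were higher and 3 lower, at a median of -0.22. Of the 10 SR genes tested 2 were higher and 4 lower, at a median of -0.52. At an unadjusted limma p under 0.05 the counts of 0 stayed at 0 in each of these groups, and the same counts were 0 when each library was scaled to its total. That scaling moved the median of all genes from -0.04 to -0.30. Under it 22 of the 58 genes were higher and 14 lower, beside 978 and 2272 of all 10619 genes tested. The medians were 0.67 for Sm and LSm genes, -0.50 for long factors and -0.82 for SR genes.

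**Figure D1:**
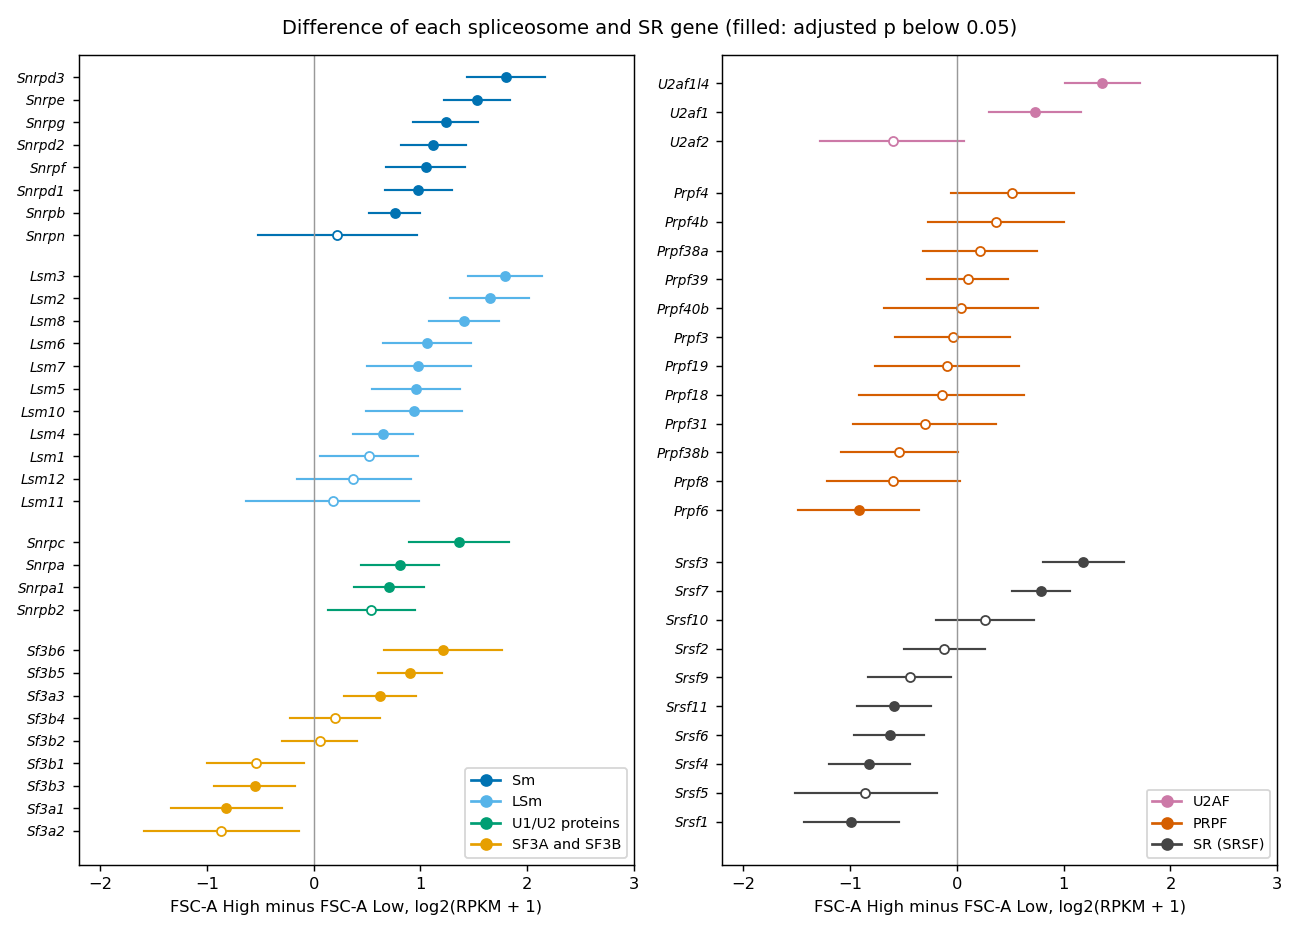
Log2 difference of 57 of the 58 tested genes, FSC-A High minus FSC-A Low, on log2(RPKM + 1), with its 95% confidence interval from limma; filled points have an adjusted p below 0.05 and colours mark the families. All 19 Sm and LSm points lie above 0, whereas the SR points run from -0.99 to 1.18.

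The Sm ring proteins coat the U1, U2, U4 and U5 RNAs. Of the 8 Sm genes 7 were called higher in FSC-A High. Snrpd3, for ring protein SmD3 (chr10:75518042-75535440), read 167, 217, 229 and 261 RPKM in FSC-A High 1 to 4 and 54.1, 61.5 and 68.9 RPKM in FSC-A Low 1 to 3. Its difference of 1.80 ± 0.17 (SE) was the largest of the 58 genes, with an adjusted p of 1.57e-05. Every FSC-A High library lay above every FSC-A Low library.

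Snrpe, for SmE, read 209.7, 267, 220.0 and 240.0 RPKM in FSC-A High and 70.2, 85.9 and 85.3 RPKM in FSC-A Low, a difference of 1.53 ± 0.14 (adjusted p = 1.59e-05). Snrpg, for SmG, read 224, 241, 233 and 186 RPKM against 86.2, 95.0 and 97.9 RPKM, a difference of 1.24 ± 0.14 (adjusted p = 6.22e-05). Snrpd2, for SmD2, read 236, 312, 329 and 276 RPKM against 124, 139 and 130.5 RPKM, a difference of 1.12 ± 0.14 (adjusted p = 0.000132). In each of these ring genes the lowest FSC-A High library was above the highest FSC-A Low library. Snrpf and Snrpd1, for SmF and SmD1, differed by 1.05 and 0.98.

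Snrpb, for SmB, had the highest level of all 59 genes per length. It read 889.9, 988, 912 and 808 RPKM in FSC-A High and 523, 574 and 497 RPKM in FSC-A Low, a difference of 0.76 ± 0.11 (adjusted p = 0.000356). Its paralog Snrpn, best known as an imprinted gene of nervous tissue, was at 5.48 to 11.4 RPKM against 3.68 to 8.72 RPKM, and its difference of 0.22 was not called (adjusted p = 0.675). Snrpn shares exons with Snurf, which had the same group means (7.40 RPKM in FSC-A High and 6.26 RPKM in FSC-A Low), so the 2 cannot be separated. Snrpb was 71.1 to 174 times Snrpn in FSC-A High libraries and 65.8 to 142 times in FSC-A Low, with overlap.

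LSm proteins form a related ring. LSm2 to LSm8 make the nuclear ring on U6, LSm1 replaces LSm8 in the cytoplasmic ring of mRNA decay, and LSm10 and LSm11 belong to the U7 particle that trims histone messages. Of the 11 LSm genes 8 were higher in FSC-A High and 0 were lower. Lsm3 (chr6:91516035-91522620) read 165, 168, 175 and 203 RPKM in FSC-A High and 43.2, 48.6 and 61.5 RPKM in FSC-A Low, a difference of 1.79 ± 0.16 (adjusted p = 1.07e-05). Lsm2 read 141, 219, 189 and 164 RPKM against 52.6, 51.5 and 62.5 RPKM, a difference of 1.65 ± 0.17 (adjusted p = 3.36e-05). Lsm8 read 128, 130.2, 113 and 116 RPKM against 39.6, 44.7 and 51.9 RPKM, a difference of 1.41 ± 0.15 (adjusted p = 4.95e-05). These 3 ring genes had no overlap between the groups.

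Lsm6 read 32.4, 38.1, 43.2 and 37.4 RPKM in FSC-A High and 18.2, 18.6 and 15.8 RPKM in FSC-A Low, a difference of 1.06 ± 0.19 (adjusted p = 0.00143). Lsm4, the LSm gene with the highest level, read 488, 539.8, 518 and 441 RPKM against 289.7, 371 and 289 RPKM, a difference of 0.65 ± 0.13 (adjusted p = 0.00267). Lsm7 and Lsm5 differed by 0.98 and 0.96, so all 7 genes of the nuclear ring rose. Lsm1, of the cytoplasmic ring, was at 30.9, 42.4, 30.6 and 30.6 RPKM against 21.5, 19.3 and 28.9 RPKM, and its difference of 0.52 was not called (adjusted p = 0.0875), although it passed without FSC-A Low 3 (adjusted p = 0.0485). The ratio of Lsm8 to Lsm1 within a library was 3.07 to 4.13 in FSC-A High and 1.80 to 2.32 in FSC-A Low, with no overlap. Their transcripts differ in length, at 807 nt for Lsm8 and 2663 nt for Lsm1. After the removal of a length and GC trend described below, the differences were nearly equal, at 0.60 for Lsm8 and 0.58 for Lsm1.

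Of the U7 genes, Lsm10 was called and Lsm11 was not. Lsm10 was higher in FSC-A High by 0.94 (adjusted p = 0.00512). Lsm11 was near the filter, at 0.663 to 1.51 RPKM against 0.146 to 1.92 RPKM, and its difference of 0.18 was not called. The limma confidence interval of Lsm11, from -0.63 to 0.99, included the difference of Lsm10, so these calls do not separate the genes. With the length and GC trend removed, Lsm10 was at 0.26 and Lsm11 at 0.58, neither of them called. Lsm12, which lies outside the rings, was at 10.5 to 17.5 RPKM against 10.2 to 11.3 RPKM and was not called either.

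Among the U1 and U2 particle proteins outside the ring, Snrpc (U1-C, which contacts the splice donor) read 24.4, 25.9, 28.4 and 28.0 RPKM in FSC-A High and 8.12, 11.5 and 9.92 RPKM in FSC-A Low, a difference of 1.36 ± 0.22 (adjusted p = 0.000626). Snrpa (U1-A) read 80.2, 106, 96.9 and 106 RPKM against 63.6, 55.1 and 47.1 RPKM, a difference of 0.81 ± 0.17 (adjusted p = 0.00357). Snrpa1 (U2-A′) read 207, 189, 202 and 149.9 RPKM against 101, 123 and 117 RPKM, a difference of 0.71 ± 0.15 (adjusted p = 0.0043). All 3 were separated between the groups. Snrpb2 (U2-B″), the partner of U2-A′, was at 29.0 to 40.8 RPKM against 22.6 to 23.9 RPKM, also without overlap, and its difference of 0.54 missed the threshold (adjusted p = 0.0507). It was called with median-of-ratios (0.0466) or upper quartile scaling (0.0473), with no filter (0.0347) and with a filter at 5 RPKM (0.042).

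The SF3A and SF3B complexes were split within themselves. Sf3b5, for a small SF3B subunit and the highest of the family, read 279, 314, 285 and 221 RPKM in FSC-A High and 150.0, 146 and 141 RPKM in FSC-A Low, a difference of 0.90 ± 0.14 (adjusted p = 0.000565). Sf3b6, for the subunit next to the branch point adenosine, read 43.9, 42.0, 71.3 and 78.8 RPKM against 21.1, 20.6 and 31.2 RPKM, a difference of 1.21 ± 0.25 (adjusted p = 0.0037). Sf3a3 read 109.7, 105, 151 and 122 RPKM against 80.0, 78.7 and 75.5 RPKM, a difference of 0.62 ± 0.16 (adjusted p = 0.0107). These 3 subunits rose.

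Sf3a1, for the largest SF3A subunit, read 9.93, 10.6, 9.19 and 13.0 RPKM in FSC-A High and 23.9, 18.7 and 16.6 RPKM in FSC-A Low, a difference of -0.82 ± 0.24 (adjusted p = 0.0225). The call was lost without FSC-A High 2 (adjusted p = 0.0505), FSC-A High 3 (0.0639) or FSC-A Low 1 (0.0963). Sf3b3 was lower by -0.55 (adjusted p = 0.0335), and this call was lost when any library other than FSC-A High 1 was left out (adjusted p of 0.05 to 0.0979). Sf3b1, the large scaffold that is often mutated in myelodysplasia, was at 21.6, 23.8, 26.1 and 30.0 RPKM against 43.9, 41.0 and 28.5 RPKM. Its difference of -0.54 was not called (adjusted p = 0.0739) except without FSC-A Low 3 (0.0312) and with library total scaling (0.0106). Sf3a2 at -0.87, Sf3b4 at 0.20 and Sf3b2 at 0.06 were not called, although Sf3a2 passed without FSC-A High 1 (adjusted p = 0.0365) and with library total scaling (0.0223).

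For U2AF, the small subunit reads the AG at the end of the intron and the large one the pyrimidine tract before it. U2af1l4, a relative of the small subunit, read 85.7, 107, 89.1 and 115 RPKM in FSC-A High and 35.9, 39.6 and 37.9 RPKM in FSC-A Low, a difference of 1.36 ± 0.16 (adjusted p = 9.19e-05). U2af1, the small subunit, read 59.3, 57.6, 77.0 and 59.5 RPKM against 28.3, 40.8 and 45.8 RPKM, a difference of 0.73 ± 0.20 (adjusted p = 0.0161) that lost its call without FSC-A High 3 (0.0553) or FSC-A Low 1 (0.0727). U2af2, the large subunit, was at 5.33 to 7.79 RPKM against 6.87 to 15.0 RPKM, with a difference of -0.60 that was not called (adjusted p = 0.174). Within a library U2af1 was 7.39 to 13.7 times U2af2 in FSC-A High and 3.05 to 4.89 times in FSC-A Low, so the ratios did not overlap. Their transcripts differ in length, at 1046 nt for U2af1 and 2183 nt for U2af2. With the length and GC trend removed, U2af1 was at 0.19 and U2af2 at -0.54, neither of them called. The ratio of U2af1l4 to U2af1 did overlap, at 1.16 to 1.93 against 0.826 to 1.27.

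The PRPF family, which includes Prpf8, the scaffold of the catalytic centre, had a median difference of -0.04 over its 13 genes. Prpf6, the bridge between U4/U6 and U5 (chr2:181601319-181655661), was the 1 gene called, at 7.64, 10.3, 13.3 and 13.4 RPKM in FSC-A High and 27.3, 20.1 and 18.3 RPKM in FSC-A Low, a difference of -0.92 ± 0.26 (adjusted p = 0.0198). It was not called without FSC-A Low 1 (adjusted p = 0.0858). Prpf8 was at 3.90 to 5.92 RPKM against 6.60 to 10.2 RPKM, without overlap, and its difference of -0.60 was not called (adjusted p = 0.145). Prpf4 had no overlap in the other direction, at 7.92 to 13.4 RPKM against 6.69 to 7.21 RPKM, and was not called (adjusted p = 0.168). The differences of the other 10 PRPF genes ran from -0.54 (Prpf38b) to 0.37 (Prpf4b) and 0 of the 13 were higher at an unadjusted p under 0.05.

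The SR genes moved in opposite directions. Srsf3 (chr17:29032660-29043372), for the smallest SR protein, read 48.8, 48.3, 52.4 and 50.8 RPKM in FSC-A High and 21.7, 19.0 and 23.9 RPKM in FSC-A Low, a difference of 1.18 ± 0.17 (adjusted p = 0.000375). Srsf7, an SR protein with a zinc knuckle and the highest of the family in FSC-A High but below Srsf2 and Srsf6 in FSC-A Low, read 294, 285, 307 and 261 RPKM against 151, 181 and 165 RPKM, a difference of 0.79 ± 0.13 (adjusted p = 0.000638). These were the 2 SR genes that rose.

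Srsf1 (chr11:88046499-88053757), a classic SR protein (SF2/ASF), read 15.9, 16.7, 17.9 and 13.4 RPKM in FSC-A High and 35.6, 28.0 and 34.4 RPKM in FSC-A Low, a difference of -0.99 ± 0.21 (adjusted p = 0.00365). Srsf4 read 54.1, 53.7, 72.1 and 46.1 RPKM against 103, 106 and 90.0 RPKM, a difference of -0.82 ± 0.18 (adjusted p = 0.00415). Srsf6 was at 104 to 131 RPKM against 155 to 216 RPKM (-0.63, adjusted p = 0.00781). Srsf11 was at 50.7 to 66.4 RPKM against 79.2 to 98.4 RPKM (-0.59, adjusted p = 0.0171) and lost its call without FSC-A High 2 (0.0507) or FSC-A Low 3 (0.0698). In all 4 the FSC-A Low libraries were above every FSC-A High library.

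Srsf5 spread widely, at 34.6, 44.6, 69.9 and 105 RPKM in FSC-A High and 129.9, 106 and 86.2 RPKM in FSC-A Low. Its difference of -0.86 was not called (adjusted p = 0.0546) but was without FSC-A High 4, at -1.14 (adjusted p = 0.00787). It was also called with TMM (0.0476) or library total scaling (0.0133), a pseudocount of 5 (0.0487), a filter at 5 RPKM (0.0303) and sample weights (0.0456). It was not called with median-of-ratios (0.0545) or upper quartile scaling (0.0602), a pseudocount of 0.5 (0.059), sums over transcripts (0.0658), the level trend removed (0.0655) or no filter (0.212). Srsf9 at -0.44 (adjusted p = 0.0819, or 0.0278 without FSC-A Low 1), Srsf2 at -0.12 and Srsf10 at 0.26 were not called. As a restatement of these calls within single libraries, Srsf3 was 2.89 to 3.78 times Srsf1 in each FSC-A High library and 0.610 to 0.697 times in each FSC-A Low library, so the order of the pair was reversed between the groups. Srsf7 was 2.35 to 2.51 times Srsf6 in FSC-A High and 0.764 to 1.17 times in FSC-A Low.

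**Figure D2:**
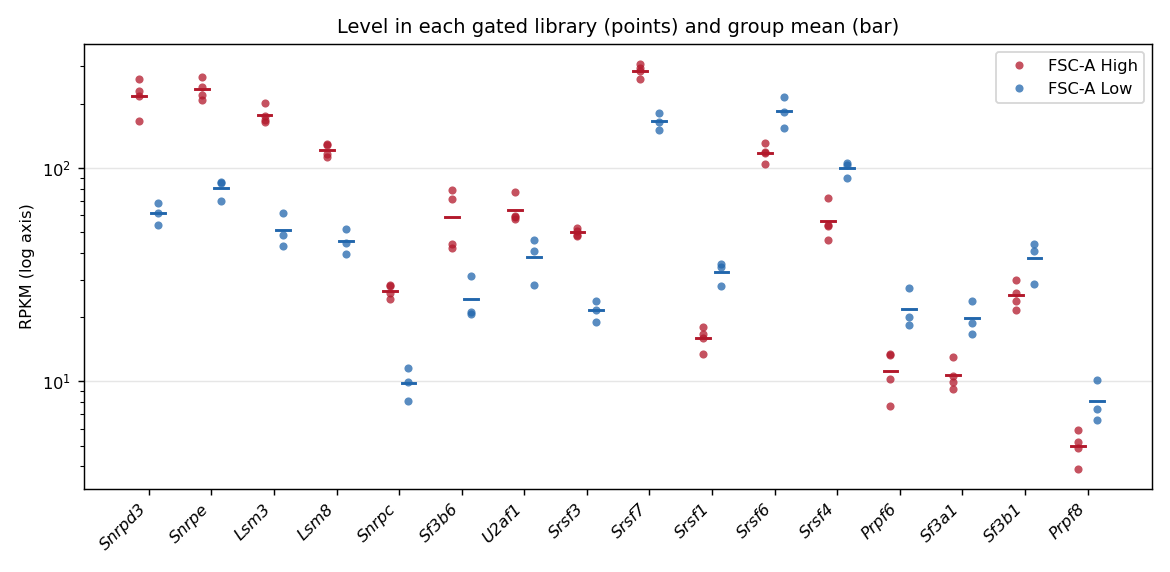
RPKM of 16 genes in each gated library (points, log axis) with the mean of each group (bars). Sm, LSm, U1, small SF3 and U2AF genes, Srsf3 and Srsf7 are higher in FSC-A High, and Srsf1, Srsf6, Srsf4, Prpf6 and Sf3a1 are higher in FSC-A Low; Snrpd3 ranges from 167 to 261 RPKM against 54.1 to 68.9.

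Annotated exons of 10 of the 59 genes overlap those of another coding gene, and without strand the reads of such pairs cannot be told apart. For the called genes the partners were Gucd1 (Snrpd3), Ccdc38 (Snrpf), BC024978 (Snrpa), Gm45213 (Snrpa1), Cog4 (Sf3b3) and, both for U2af1l4, Psenen and Gm49396. Psenen rose by 0.91 (adjusted p = 0.0014) and Ccdc38 by 0.82 (adjusted p = 0.042). Gucd1, at 9.30 and 10.8 RPKM as group means, differed by -0.03 and Cog4 by 0.18, neither of them called.

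Because short Sm and LSm genes were to be set against long factors, the differences were read against transcript length over all genes. Among all tested genes with a transcript under 1000 nt, 42.0% were higher in FSC-A High and 3.00% lower, with a median of 0.55. The 14 spliceosome genes of that class were all higher, with a median of 1.02. From 1000 to under 2000 nt the shares of all genes were 26.2% and 5.90% with a median of 0.30, and 8 of 14 spliceosome genes were higher and 0 lower, with a median of 0.66. From 2000 to under 4000 nt the shares were 8.27% and 13.9%, and 3 of 20 spliceosome genes were higher and 4 lower, with a median of -0.07 against -0.16 for all genes. At 4000 nt and over the shares were 3.67% and 18.8%, and 0 of 10 spliceosome genes were higher and 3 lower, with a median of -0.23 against -0.39. Among the spliceosome genes, unadjusted limma p-values under 0.05 gave 0 lower under 1000 nt, 2 lower from 1000 to under 2000 nt (Srsf5 and Srsf9) and 0 higher at 4000 nt and over, and the same counts of calls were found with each library scaled to its total.

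Length went with the difference across all genes, and the median of the spliceosome genes lay above that of all genes in each length class. As descriptions, Spearman's rho of the difference with transcript length was -0.43 over 10460 genes and -0.67 over the 58 spliceosome genes, all measured in the same 7 libraries. Over the 58 genes rho was -0.77 with coding length. The 3 higher genes of 2000 to under 4000 nt were Snrpd3, Lsm6 and Srsf3, with transcripts of 3036, 2107 and 2618 nt but coding lengths of 378, 240 and 492 nt. Within the 9 SF3A and SF3B genes rho with transcript length was -0.77. It was -0.33 within the 10 SR genes and 0.24 within the 13 PRPF genes.

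**Figure D3:**
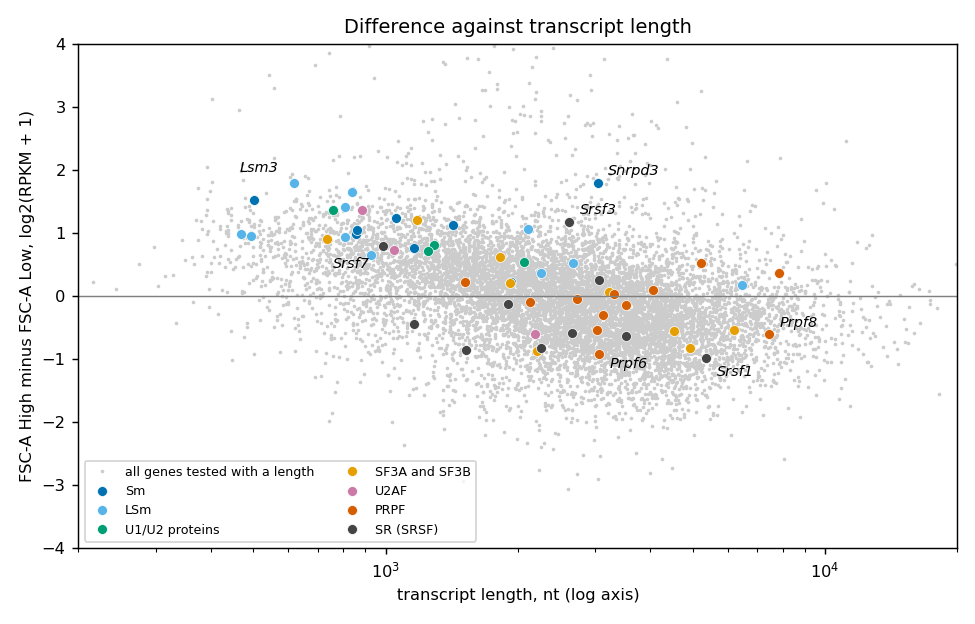
Log2 difference, FSC-A High minus FSC-A Low, against transcript length in nt (log axis) for all genes tested with a length (grey) and for 57 spliceosome genes coloured by family. The grey cloud falls with length, the short Sm and LSm genes sit in its upper part, and Snrpd3 at 3036 nt and Srsf3 at 2618 nt lie above their length class.

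A smooth trend over transcript length and GC content was then removed within each library and the model refitted. This left 12 of the 58 genes higher and 6 lower, beside 9.32% and 8.41% of all 10460 genes with a length. Of the 25 higher genes 11 kept their call, and of the 7 lower genes 4 did. The medians became 0.58 for Sm and LSm genes, -0.12 for long factors and -0.52 for SR genes, and -0.01 for all genes. Sm and LSm genes and SR genes thus kept medians of opposite sign, and the median of the long factors moved closer to that of all genes.

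Among the Sm genes Snrpd3 (1.97, adjusted p = 5.05e-06), Snrpe (0.64, adjusted p = 0.00861), Snrpg (0.61, adjusted p = 0.0137), Snrpd2 (0.71, adjusted p = 0.00313) and Snrpb (0.42, adjusted p = 0.0107) stayed higher. Among the LSm genes Lsm2 (1.01), Lsm3 (0.98), Lsm6 (0.91) and Lsm8 (0.60) did. Calls of Snrpd1, Snrpf, Lsm4, Lsm5, Lsm7 and Lsm10 were lost, with differences of 0.09 to 0.29. So were those of all 3 U1 and U2 particle genes (0.22 to 0.69), of Sf3b5 (0.12), Sf3b6 (0.59) and Sf3a3 (0.41), and of U2af1 (0.19), while U2af1l4 kept its own (0.73, adjusted p = 0.017).

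In the SR family Srsf3 stayed higher (1.11, adjusted p = 0.000541), while Srsf7, with a short transcript of 987 nt, had a difference of 0.14 (adjusted p = 0.501). This rests on the transcript model, since with the longest model of each gene Srsf7 stayed higher (0.68, adjusted p = 0.00213). Srsf1 (-0.74), Srsf4 (-0.71), Srsf6 (-0.50) and Srsf11 (-0.53) stayed lower, and Srsf5 (-1.33, adjusted p = 0.00741) and Srsf9 (-0.85, adjusted p = 0.00797) became lower. Prpf6 (-0.75, adjusted p = 0.0593), Sf3a1 (-0.44) and Sf3b3 (-0.19) lost their calls, and Prpf4 became higher (0.86, adjusted p = 0.0178). Lengths are those of GENCODE models matched by RefSeq identifier and may differ from the lengths the authors used. With the longest model of each gene in their place, 12 genes were higher and 6 lower, but Srsf7 was among them and Lsm8 was not (0.54, adjusted p = 0.0632).

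**Figure D4:**
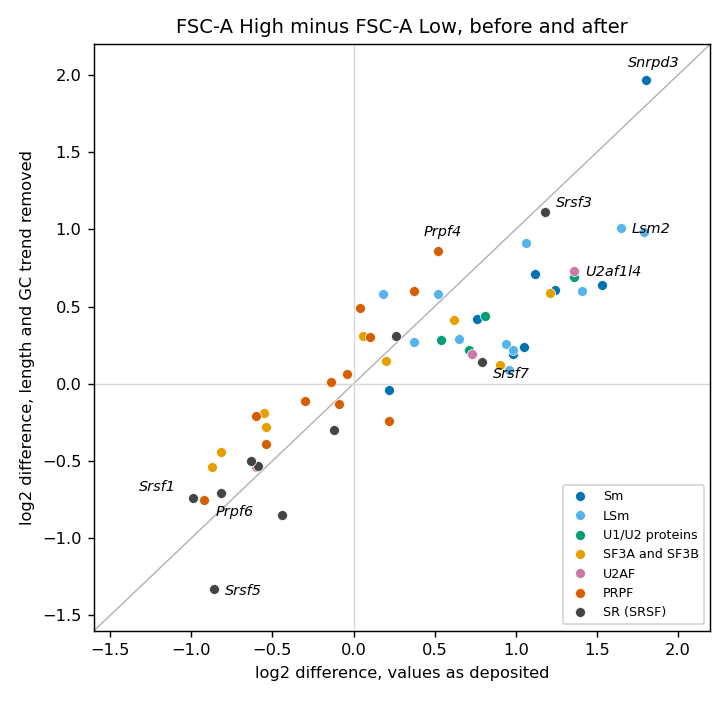
Log2 difference of 57 genes as deposited (horizontal) and after removal of the length and GC trend in each library (vertical); the diagonal marks no change. Most short Sm, LSm and U1/U2 genes drop towards 0, Snrpd3 and Srsf3 stay at 1.97 and 1.11, and the lower SR genes stay below 0.

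A smooth trend over expression level was also removed, since the difference rose with the mean level over the 58 genes (rho 0.47) and over all genes (rho 0.28). After that 14 of the 58 genes were higher and 8 lower, beside 960 and 1051 of all 10619 genes tested. Snrpb (0.07) and Lsm4 (0.05), the genes with the highest levels of their families, were no longer called. Snrpd3, Lsm3, Lsm2, Snrpe, Lsm8 and Srsf3 were among the genes that kept a call under both removals, Lsm8 not with the longest models.

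Other genes of the splicing pathway were taken from 5 lists. Of 64 other spliceosome proteins 19 were higher in FSC-A High and 2 lower, with a median of 0.07. This is 29.7% and 3.12%, beside 15.6% and 11.7% of all genes tested. After removal of the length trend 9 were higher and 2 lower, beside 9.32% and 8.41% of all genes with a length. Snrnp25, of the minor spliceosome that removes a rare class of introns, had a mean of 175 ± 22.5 RPKM (SD, n = 4) in FSC-A High against 44.9 ± 7.81 RPKM (SD, n = 3), a difference of 1.95 by limma (adjusted p = 8.51e-06). Ppih, a cyclophilin of the U4/U6.U5 particle, was at 33.6 ± 4.92 against 8.02 ± 1.27 RPKM, a difference of 1.94 (adjusted p = 6.58e-05). The lower genes were Rbm17 (-0.71) and the helicase Aqr (-0.81), named after their values were seen.

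Of 20 genes for Sm ring assembly and snRNA maturation 4 were higher and 1 lower, beside 15.6% and 11.7% of all genes tested, with a median of 0.11. After removal of the length trend 1 was higher and 2 lower. The SMN complex, which loads Sm proteins on snRNA, contributed Gemin2 (0.81, adjusted p = 0.00257) and Gemin6 (1.44, adjusted p = 0.0047), while Smn1 itself differed by 0.27 and was not called. Gemin2 (0.41, adjusted p = 0.129) and Gemin6 (0.84, adjusted p = 0.112) lost their calls with the trend removed. Also higher were Gemin8 (1.49) and Clns1a (0.64, or 0.28 and not called with the trend removed), the chaperone that delivers Sm proteins, and the cap-binding gene Ncbp1 was lower (-0.93); these 3 were named after their values were seen.

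Of 15 tested SR-related genes, SR kinases and the SR importer 2 were higher and 0 lower (0 also at an unadjusted p under 0.05 and after removal of the length trend, which left 4 higher), with a median of 0.24. They were Son (0.91, adjusted p = 0.0107) and Tra2b (0.63, adjusted p = 0.0113), both with transcripts over 2000 nt. The kinases Srpk1 (-0.02) and Clk1 (-0.15) were not called. Of 26 hnRNP genes and related repressors, which often oppose SR proteins, 3 were higher and 5 lower, which is 11.5% and 19.2% beside 15.6% and 11.7% of all genes, with a median of -0.31. After removal of the length trend 1 was higher and 3 lower. Hnrnpab was lower by -1.14 (adjusted p = 0.000398) and Hnrnpa2b1 higher by 0.69 (adjusted p = 0.00341), the latter not called with the trend removed (0.27, adjusted p = 0.274). Of the 5 exon junction complex genes Eif4a3 (0.74, adjusted p = 0.0081), Magoh (0.79, adjusted p = 0.0113) and Rbm8a (1.03) were higher and Casc3 was lower (-1.02), the last 2 named after their values were seen. Removal of the length trend left 1 of the 5 called, Rbm8a (0.99, adjusted p = 0.0164), and Eif4a3 (0.41), Magoh (-0.07) and Casc3 (-0.72) were not called.

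In the 4 WT HSC libraries the levels were computed as CPM per kb of transcript, without the ribosomal precursor Rn45s, which took 3.06% to 15.2% of the reads. These libraries form a single group in files of another unit, so they entered no test. All 59 genes had a row, 2 of them under an older symbol (Lsm8 and Sf3b6). Srsf7 had the highest level, at 1040.3, 970.4, 781 and 807 CPM per kb in WT HSC 1 to 4. Snrpb followed at 617 to 732, Snrpe at 399 to 699.5, Srsf5 at 429 to 612 and Srsf2 at 244 to 326 CPM per kb. The range of Snrpe overlapped that of Snrpb and that of Srsf5, so its place between them is not resolved beyond the spread between libraries. The lowest value of Srsf7 was above the highest of Snrpb, and the lowest of Snrpb above the highest of Srsf5.

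The family medians were 114 CPM per kb for Sm, 108 for LSm, 97.3 for U1 and U2 proteins, 81.4 for SF3, 81.6 for U2AF, 25.4 for PRPF and 115 for SR genes. PRPF genes were the lowest family, from 4.48 (Prpf40b) to 60.1 (Prpf38a) CPM per kb. Among the SR genes the span was the widest, from 0.569 (Srsf12) to 899.6 (Srsf7) CPM per kb. Srsf3, at 205 CPM per kb, was above Srsf1, at 52.6, and their ranges of 157 to 235 and 46.4 to 55.3 did not overlap. Sf3b1 was at 94.7 to 136 and Sf3a2 at 5.45 to 21.9 CPM per kb.

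Snrpn was listed at 0 in all 4 WT HSC libraries, as was Snurf, and Lsm11 had 1 read in WT HSC 4. Snrpf stood at 7.98 to 17.5 CPM per kb, the lowest Sm gene with reads, and in the gated files its mean of 79.2 RPKM was also below those of the other 6 called ring genes, the nearest of which was Snrpd1 at 146 RPKM. Snrpd3 was at 32.9 to 39.0 CPM per kb. The level order of the 59 genes in WT HSC and in the gated libraries was similar, with Spearman's rho of 0.864 as a description, although transcript lengths enter both. Between the means of FSC-A High and FSC-A Low, which share their transcript models, rho was 0.919.

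**Figure D5:**
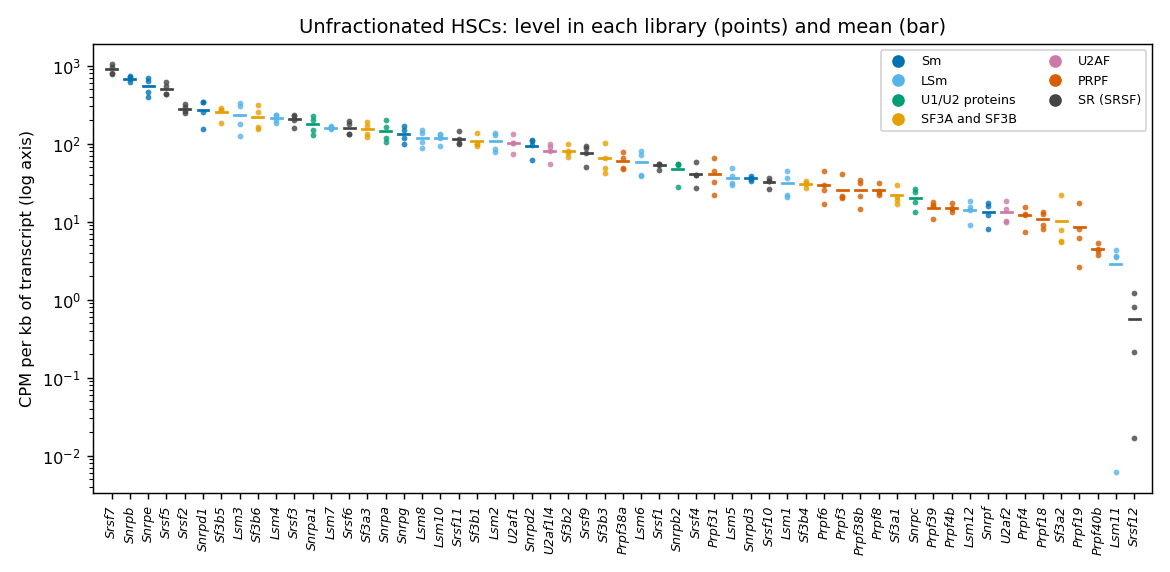
CPM per kb of transcript (log axis) of 57 spliceosome genes in each WT HSC library (points) and their mean (bars), ordered by mean and coloured by family; Snrpn, at 0, is not drawn. Srsf7, Snrpb, Snrpe and Srsf5 are at the top, PRPF genes fill much of the lower part, and Srsf12 is lowest.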

How the data were processed

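The 11 libraries were grouped by their titles. Gated files hold 1 value per RefSeq transcript, read as RPKM, which the authors had deposited already scaled for depth and length. No header or label names this unit: it was inferred from the sum of value times transcript length, which is nearly the same in each library. The deposited WT HSC files hold a signal per symbol that the authors had divided by 1 factor per library, since all of its values became whole reads within 0.01, and these reads were turned into CPM. STAR, DESeq2 and mm10 are named in the submitters' processing notes without versions or roles. A count test was not run on the recovered reads, because WT HSC is a single group.

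For the gated groups, limma 3.58.1 (lmFit, then eBayes with trend; R 4.3.3) was fitted to log2(RPKM + 1) by group alone. A gene entered where 3 or more libraries held 1 RPKM or over. P-values were Benjamini-Hochberg adjusted over 10619 genes and called below 0.05. The design had named edgeR in case the files held counts. A fold on the log2(RPKM + 1) scale understates the change of low genes. The step was tested on simulated data. Members and lists were chosen with earlier results of these data known.

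Per family, genes with the value in every library were up to 4 called ones with the smallest p and the highest-level one. Others are given by difference or range, and in each pathway list up to 2 called genes are named.

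GENCODE M21 models, matched by RefSeq identifier, gave transcript length and GC content, and 1 length (Sf3b5) was limited to the RefSeq gene span. Alternatives were median-of-ratios, TMM (edgeR 4.0.16), upper quartile and library total scaling, filters at 5 RPKM or none, pseudocounts of 0.5 and 5, a replicate block, sample weights, sums over transcripts, each library left out, and removal of splines (5 degrees of freedom) over length and GC content or over level. Chosen after seeing the data were the longest length per gene and a limit on coding length. Tables used Python 3.11.15, numpy 2.4.6, pandas 2.3.3 and scipy 1.17.1, and plots matplotlib 3.10.9. Values of 1 PRPF gene and 1 marker are not reported here, although they enter the counts.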

Additional observations from a re-analysis of the deposited data

Results flagged for a closer look

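A library was looked at again where it stood apart from the other 3 of its group by Dixon's ratio at the 95% level, in groups of 4. This held for 8 of 116 tests, and chance alone gives about 1 in 20. In FSC-A High, Lsm1 was at 42.4 RPKM in replicate 2 against 30.6 to 30.9 RPKM in the others. U2af1 was at 77.0 RPKM in replicate 3 against 57.6 to 59.5 RPKM, and U2af2 at 7.79 RPKM in replicate 2 against 5.33 to 5.61 RPKM. In the WT HSC group, Prpf3 was at 112 CPM in replicate 4 against 54.4 to 58.0 CPM, and Sf3a2 at 48.6 CPM in replicate 4 against 12.1 to 17.5 CPM. WT HSC 1 stood apart for Sf3b1, at 845 CPM against 587 to 620.1 CPM, and for Snrpb2, at 57.3 CPM against 110.1 to 114 CPM. Srsf1 was at 249 CPM in WT HSC 3 against 289 to 297 CPM.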

How the results depend on the processing

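No result changed direction while called under any setting run. Removing the length and GC trend gave 12 higher genes, a Sm and LSm median of 0.58 and 1855 as the number of genes called, all tested, against 2902 without removal. With the longest length per gene these were 12, 0.54 and 1806. Removing the level trend gave 14 higher genes, beside 960 of all 10619 genes tested, and medians of 0.62 (Sm and LSm) and -0.81 (SR). Library total scaling gave 14 lower genes, beside 2272 of all 10619 genes tested, and medians of 0.67, -0.50 (long factors) and -0.82. The long factor median was -0.42 with a filter at 5 RPKM, 0.04 with no length limit and -0.12 with a coding length of at least 1000 nt. With libraries left out in turn, 24 to 26 genes were higher and 4 (without FSC-A High 2) to 8 (without FSC-A High 1) lower. The calls over all genes, in either direction, also fell, from 2902 to 2257 without FSC-A High 2. They ran from 2218 (without FSC-A High 3) to 2805 (without FSC-A High 1). In these fits the medians ran from 0.97 to 1.11 (Sm and LSm), -0.61 to -0.44 (SR) and -0.44 (without FSC-A High 4) to -0.09 (long factors, without FSC-A High 1). Same-numbered libraries of the groups did not deviate together (correlations -0.03, 0.06 and 0.00). With so few pairs, this cannot tell whether the numbers mark a shared animal or day, which the labels do not state. With the replicate block, which sets FSC-A High 4 alone, the long factor median was -0.44, Sf3b3 lost its call (adjusted p = 0.0703) and Srsf5 gained 1 (adjusted p = 0.0144). The cause of these shifts was not tested. Of the 10 WT HSC genes with the highest level per kb, 4 were among the top 10 without length scaling. Levels near 1 RPKM, as for Prpf19, Lsm11 and Srsf12, limit what these libraries can show.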
